A study of Mus musculus with 4 samples.

Results

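The Golgi glycosyltransferases, sulfotransferases and trimming mannosidases of the mouse melanoma line B16 were examined as 12 symbol families in poly(A) RNA-seq libraries. Members were the rows of the raw count table whose symbol begins with Galnt, B4galt, B3galt, B3gnt, Mgat, St3gal, St6gal (St6galnac included), St8sia, Fut, Gcnt, Chst, Man1a or Man2a followed by a digit, without opposite-strand or pseudogene names, and with at least 40 reads summed over the 4 libraries. Man1a and Man2a were taken as 1 family. The symbol rule matched 98 of 53465 rows, and 47 of them reached the read minimum. The remaining 51 rows comprised 32 with 0 reads and 19 with 1 to 39 reads. The low-count filter of the test kept 13664 genes, among them all 47 members.

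The series holds 2 control libraries (control 1 and control 2) and 2 libraries of cells treated for 4 h with EM-plasma (EM-plasma 1 and EM-plasma 2), which the labels describe as plasma treated with exosome-mimetic nanovesicles, vesicles made to resemble exosomes. No genetic change, strain of origin or other agent is named for either group. The labels do not say what the plasma was, what the controls received or when they were collected. Nor do they tie the libraries to separate cultures, and a p-value here reflects the spread among 4 libraries alone, which may be technical. The series title places the comparison in work on Golgi stress and ferroptosis, and the question asked here is whether transcripts of the Golgi enzymes that build glycans differed between treated and control cells.

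Most of these enzymes sit in the Golgi membranes, as type II membrane proteins with a short cytosolic tail and a catalytic domain in the lumen. Cargo proteins and lipids meet them in turn. Mannosidases trim the N-glycans that arrive from the ER, N-acetylglucosaminyltransferases start the antennae and galactosyltransferases extend them. Sialyltransferases and some fucosyltransferases cap the antennae. Mucin-type O-glycans are begun by the GALNT enzymes and branched by GCNT enzymes, and carbohydrate sulfotransferases decorate glycosaminoglycans and other chains. In melanoma, N-glycan branching and sialylation have long been studied for their part in adhesion and metastasis.

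Total counts ran from 46295133 to 49367932 per library, with reads on 18954 to 19493 genes. The members took 0.418% and 0.414% of the counts in controls and 0.409% and 0.405% in EM-plasma libraries. All 11 melanocyte lineage markers examined were detected, with Tyrp1 at 187600 to 191364 reads per library, and edgeR called 0 of the 11 (3 had an unadjusted p below 0.05, and DESeq2 called 0). Summed markers of other cell types were low: 0.232 and 0.386 CPM (counts scaled to library size, as defined below) in controls and 0.0859 and 0.129 in EM-plasma libraries for lymphocytes, with 6 of 8 markers at 0 reads, Ptprc included. Macrophage markers summed to 1.2 and 1.69 against 1.59 and 1.93 CPM with 3 of 6 at 0, Adgre1 included, and platelet and erythroid markers to 0.264 and 0.591 against 0.429 and 0.623 CPM with 5 of 7 at 0, Pf4 included. The fibroblast and endothelial list summed to 27.8 and 29.4 CPM in controls and 29.4 and 30.5 in EM-plasma libraries, mostly from Col1a2, with 2 of 8 at 0, Cdh5 and Kdr. The part of these levels in the results was not tested.

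CPM is the count of a gene relative to the library's total over the tested genes (counts per 1000000), scaled by TMM, a normalization that offsets differences in RNA composition, and log2 fold changes are of EM-plasma over control. The quasi-likelihood F test of edgeR gave the p-values, adjusted by Benjamini-Hochberg over all 13664 tested genes, and a gene is called where its adjusted p is below 0.05. Of the 47 members 5 were called (10.6%), against 6.21% of all tested genes. St6galnac3, Fut10 and Mgat5 were lower and Chst11 and Mgat4a higher. The 2 called higher are 4.26% of the members, against 3.34% of all tested genes, and the 3 called lower are 6.38%, against 2.88%. These shares rest on 2 and 3 genes and are a description. The called changes were small, from 1.13-fold to 1.34-fold. The median log2 fold change of the members was -0.0083, against -0.0027 for all tested genes, and 22 of 47 lay above 0 (46.8%, against 49.1% of all tested genes). The median absolute log2 fold change was 0.093 for the members and 0.09 for all tested genes.

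**Figure D1:**
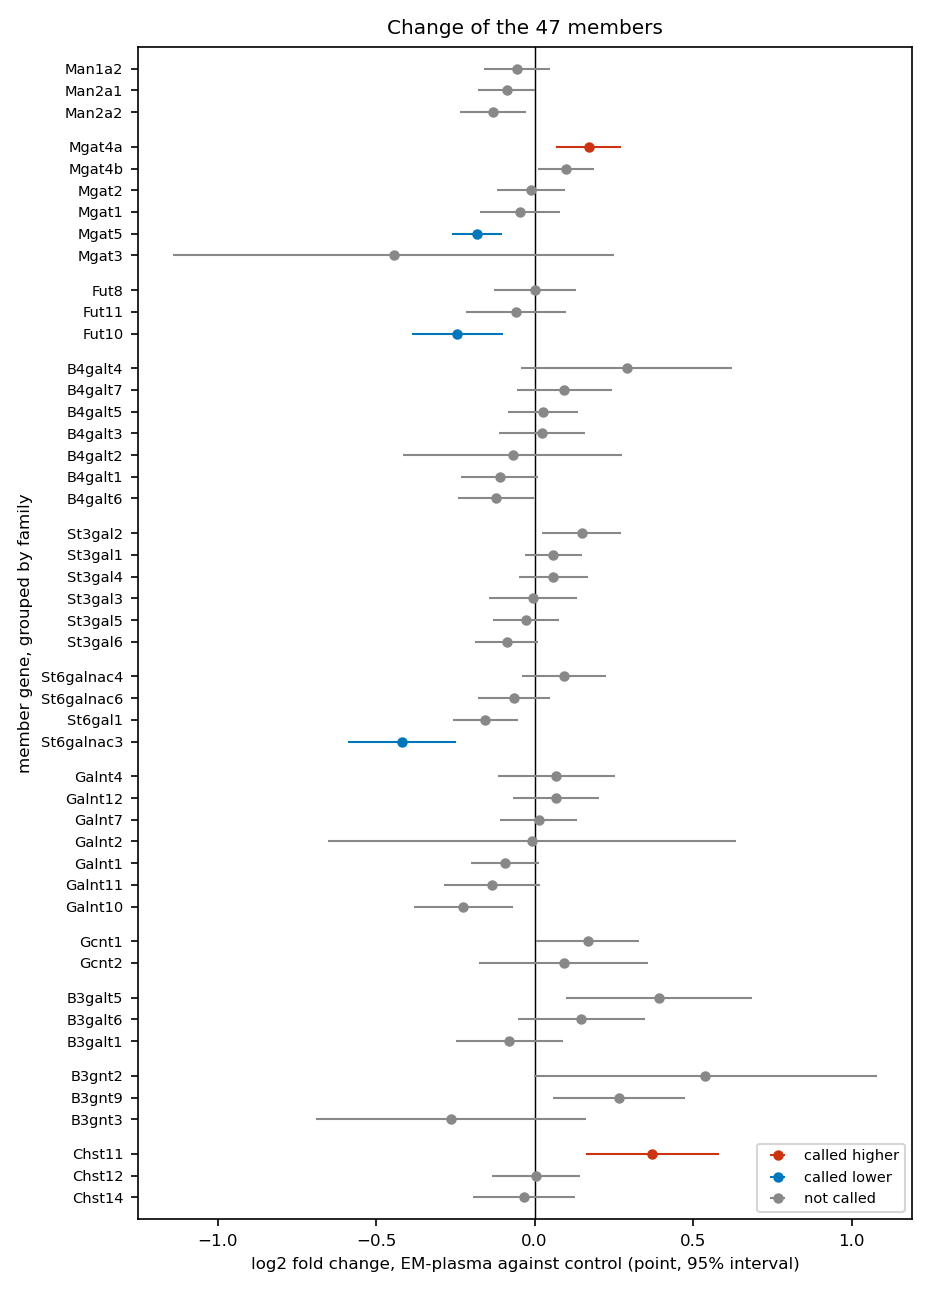
Log2 fold change of EM-plasma against control (horizontal axis) for each of the 47 members, grouped by family, as the point estimate with its 95% interval from the edgeR fit. Red and blue points are members called higher and lower, grey points are not called, and most points lie within 0.2 of 0, with the widest intervals for the lowly expressed Mgat3, Galnt2 and B3gnt2.

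The stretches before the annotated start of 4 of them are shown because the series title speaks of Golgi stress, a response in which the factor TFE3 binds a promoter element with the core ACGTGGC (GASE). They are the RefSeq promoter windows on GRCm38.p6, written 5′ to 3′ on the strand of the gene and limited to bases outside annotated exons. Capitals mark matches, on either strand, to the GASE core ACGTGGC, to the E-box CACGTG or to the cyclic AMP response element TGACGTCA. The Mgat5 stretch is chr1:127204736-127204985 (plus strand), the Mgat4a stretch chr1:37541017-37541266 (minus strand, the outer of 2 starts in the table), the Chst11 stretch chr10:82985247-82985496 (plus strand) and the St6galnac3 stretch chr3:153725175-153725383 (minus strand).
Mgat5: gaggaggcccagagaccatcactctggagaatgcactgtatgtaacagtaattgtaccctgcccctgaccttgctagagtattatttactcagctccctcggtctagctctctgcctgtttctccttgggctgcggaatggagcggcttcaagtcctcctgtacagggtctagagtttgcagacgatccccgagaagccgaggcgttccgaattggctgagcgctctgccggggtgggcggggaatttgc
Mgat4a: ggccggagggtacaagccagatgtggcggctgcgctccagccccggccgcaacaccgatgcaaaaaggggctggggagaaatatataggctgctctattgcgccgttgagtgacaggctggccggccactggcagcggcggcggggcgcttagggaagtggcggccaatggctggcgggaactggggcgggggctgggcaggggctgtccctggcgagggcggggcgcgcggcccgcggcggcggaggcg
Chst11: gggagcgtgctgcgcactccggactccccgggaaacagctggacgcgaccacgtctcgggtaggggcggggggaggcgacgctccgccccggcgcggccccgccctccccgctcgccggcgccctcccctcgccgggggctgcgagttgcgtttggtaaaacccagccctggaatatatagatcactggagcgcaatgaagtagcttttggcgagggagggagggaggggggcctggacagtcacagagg
St6galnac3: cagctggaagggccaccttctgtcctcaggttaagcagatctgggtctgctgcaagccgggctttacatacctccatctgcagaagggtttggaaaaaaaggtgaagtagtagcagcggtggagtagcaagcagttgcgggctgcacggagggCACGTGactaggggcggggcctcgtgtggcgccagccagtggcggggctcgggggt

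The St6galnac3 stretch is 209 bases long and the others 250. In these stretches the GASE core and the cyclic AMP response element had 0 matches, and the E-box had 1, in St6galnac3. Mgat4a and Chst11 had GC contents of 72.4% and 70% with 26 CG dinucleotides each in 250 bases, whereas Mgat5 had 56% and 11. Over the 34 members with a window in the RefSeq table (51 windows of 250 bases), the GASE core had 0 matches, against 2.02% of all 32851 windows. At that share few matches would be found in 51 windows, so 0 does not show a lack of the core. The other members, among them Fut10 and Mgat4b, had no window and were not examined. The E-box was found for B3galt5, Chst14 and St6galnac3, in 3 of 51 windows against 6.02% of all windows, and the cyclic AMP response element for B4galt3 and Galnt11, in 2 of 51 windows against 1.55%. The 3 motifs can overlap in part, since GASE and the E-box share the letters ACGTG. A match is a run of letters and not a bound site, and its lack says only that the letters are not in this window.

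In 7 families (the mannosidases, B4galt, St3gal, Galnt, Gcnt, B3galt and B3gnt) edgeR called 0 members. In each of them 1 member had an unadjusted p below 0.05, and DESeq2 also called 0.

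The trimming mannosidases were all expressed, and 0 of 3 were called. Man2a1 and Man2a2 encode the Golgi alpha-mannosidases that act after the first N-acetylglucosamine has been added. Man2a1 was at 311 and 314 CPM in controls and 288 and 299 CPM in EM-plasma libraries (log2 fold change -0.089, SE 0.044, adjusted p = 0.26). Man2a2 was at 133 and 129 CPM in controls and 123 and 117 CPM in EM-plasma libraries (log2 fold change -0.13, SE 0.051, adjusted p = 0.131). In both genes the EM-plasma libraries lay below both controls, as in 24.8% of all tested genes, without passing the test. Man1a2, an earlier-acting mannosidase gene, had a log2 fold change of -0.055 with overlapping groups. All 3 estimates were below 0 in every setting tried except the fit without control 2, in which 1 of 3 lay above 0. Its relative Man1a, which the symbol rule does not take because no digit follows the name, was at 2.32 to 3.65 CPM and was not called (adjusted p = 0.354).

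The N-acetylglucosaminyltransferases of the Mgat family held 1 member called lower and 1 called higher, both branching enzymes. Mgat5 (chromosome 1, 127205015 to 127488336, plus strand, ENSMUSG00000036155) encodes the enzyme that adds the tumour-associated branch on one mannose arm of the N-glycan. Mgat5 was at 889 and 888 CPM in controls and at 790 and 779 CPM in EM-plasma libraries. The EM-plasma values lay below both controls, and the gap exceeded the spread within either group (889 ± 0.429 against 784 ± 7.97 CPM, SD, n = 2 per group). That spread is poorly known from 2 values per group. Mgat5 fell by 11.8% (log2 fold change -0.18, 95% interval -0.26 to -0.10, adjusted p = 0.00369). It had the most reads of all members, 158944 over the 4 libraries. Its exons share 152 bases, 1.48% of their length, with Tmem163 on the other strand.

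Mgat4a (chromosome 1, 37439340 to 37541016, minus strand, ENSMUSG00000026110) encodes an enzyme that adds a further branch on the other mannose arm. Mgat4a was at 118 and 121 CPM in controls and at 132 and 136 CPM in EM-plasma libraries, with no overlap of the groups (119 ± 2.26 against 134 ± 2.42 CPM, SD, n = 2 per group). Mgat4a rose 1.13-fold (log2 fold change 0.17, 95% interval 0.069 to 0.27, adjusted p = 0.0367). Its paralogue Mgat4b, of the same enzyme activity, was at 509 and 475 CPM in controls and 525 and 529 CPM in EM-plasma libraries and was not called (log2 fold change 0.099, adjusted p = 0.184). Mgat4b depended on which control was used. Its log2 fold change was 0.15 without control 1 (adjusted p = 0.0491) and 0.053 without control 2 (adjusted p = 0.379), and the adjusted p was 0.764 without EM-plasma 1 and 0.765 without EM-plasma 2.

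Because Mgat5 and Mgat4a were called in opposite directions, the ratio of their reads within each library was formed, a pair chosen after their values were seen. There were 7.56 and 7.35 Mgat5 reads per Mgat4a read in controls and 5.96 and 5.73 in EM-plasma libraries. The ratio does not depend on library scaling. Its groups could not overlap, since Mgat5 lay below both controls and Mgat4a above both, so it adds no evidence. An exact permutation test of 2 libraries against 2 cannot give a two-sided p below 0.333, so none was used. Mgat1 and Mgat2, which open the first and the second antenna, had intervals of the log2 fold change from -0.17 to 0.081 and from -0.12 to 0.095. Mgat3, whose product adds the bisecting residue, was near the detection limit, at 0.559 to 1.1 CPM with a log2 fold change of -0.44 and a 95% interval from -1.14 to 0.25.

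**Figure D2:**
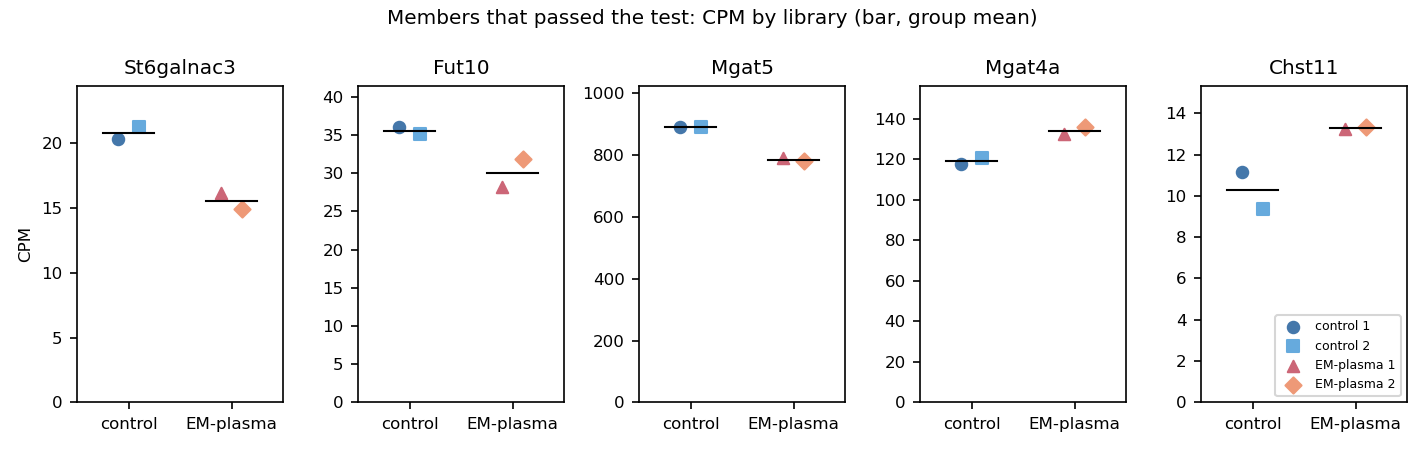
CPM (vertical axis, starting at 0) of the 5 members that passed the test in each of the 4 libraries, with a bar at each group mean. In each panel both EM-plasma libraries lie on one side of both controls, and the 2 Fut10 values of the EM-plasma group, 28.2 and 31.8 CPM, are spread the most relative to the difference from controls.

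Among fucosyltransferases Fut10 was the only one called of 3 members. Fut10 (chromosome 8, 31187331 to 31261738, plus strand, ENSMUSG00000046152) was at 36 and 35.1 CPM in controls and at 28.2 and 31.8 CPM in EM-plasma libraries. The groups did not overlap, but the EM-plasma libraries differed from each other by more than the controls did (35.6 ± 0.616 against 30 ± 2.54 CPM, SD, n = 2 per group). Fut10 fell by 15.6% (log2 fold change -0.24, 95% interval -0.39 to -0.10, adjusted p = 0.0337). Fut8, the enzyme gene of core fucosylation and the family member with the highest level per kilobase, was at 49.9 and 55.4 CPM in controls and 52.2 and 53.3 CPM in EM-plasma libraries. The interval of the Fut8 log2 fold change ran from -0.13 to 0.13, and that of Fut11 from -0.22 to 0.099. Fut1, Fut2, Fut4 and Fut9 had 0 reads in every library, and Fut7, which builds selectin ligands in leukocytes, had 4 reads in all.

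Galactosyltransferases of the B4galt family held 0 called of 7 members. B4galt5 and B4galt6 make lactosylceramide, from which most gangliosides are built. B4galt5 was at 114 and 105 CPM in controls and 113 and 109.5 CPM in EM-plasma libraries, while B4galt6 was at 84 and 90.1 CPM in controls and 83.7 and 76.2 CPM in EM-plasma libraries (log2 fold change -0.12, adjusted p = 0.24). B4galt1, which adds galactose to N-glycan antennae, had a log2 fold change of -0.11 (95% interval -0.23 to 0.012), B4galt3 one of 0.023, and B4galt7, which acts on the linker of glycosaminoglycans, one of 0.094. B4galt4 and B4galt2, at 3.92 to 5.8 and 3.52 to 4.75 CPM, had wider intervals, from -0.043 to 0.62 and from -0.41 to 0.28. The B4galt2 exons share 28.2% of their length with Ccdc24 on the same strand, which had 0 to 3 reads.

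Sialyltransferases of the St3gal family were all 6 expressed, and 0 of 6 were called. St3gal1, which caps mucin-type O-glycans, was the most abundant per kilobase, at 280 and 271 CPM in controls and 289 and 285 CPM in EM-plasma libraries (log2 fold change 0.060, adjusted p = 0.495). St3gal2 was at 59.6 and 54.1 CPM in controls and 64 and 62 CPM in EM-plasma libraries (log2 fold change 0.15, adjusted p = 0.16). St3gal4, St3gal5 and St3gal6 lay at similar levels per kilobase, 44.7, 44.3 and 42.5 CPM per kilobase over the 4 libraries. St3gal5, the gene of the synthase of the ganglioside GM3, had a log2 fold change of -0.027 with a 95% interval from -0.13 to 0.077. The interval of St3gal6 was -0.19 to 0.012, that of St3gal4 -0.05 to 0.17, and that of St3gal3 -0.15 to 0.13. Of the exon length of St3gal6, 26% is shared with Dcbld2 on the other strand, which was itself called lower (log2 fold change -0.21, adjusted p = 0.00804). The sources used here do not say whether the counting used strand.

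The St6gal family, including the St6galnac genes, had 1 called of 4 members. St6galnac3 (chromosome 3, 153198266 to 153725174, minus strand, ENSMUSG00000052544) encodes a sialyltransferase that adds sialic acid to the N-acetylgalactosamine of already sialylated O-glycans and glycolipids. St6galnac3 was at 20.3 and 21.2 CPM in controls and at 16.2 and 14.9 CPM in EM-plasma libraries. The EM-plasma values lay well below both controls (20.8 ± 0.643 against 15.5 ± 0.878 CPM, SD, n = 2 per group). St6galnac3 fell by 25.2%, with the smallest p of all members (log2 fold change -0.42, 95% interval -0.59 to -0.25, adjusted p = 0.00174).

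The other 3 members of that family were not called. St6gal1, which caps N-glycan antennae in the linkage recognised by elderberry lectin, was at 127 and 131 CPM in controls and at 117 and 115 CPM in EM-plasma libraries. The St6gal1 groups did not overlap, and the gene missed the threshold (log2 fold change -0.16, SE 0.05, adjusted p = 0.0596). St6galnac6 had a log2 fold change of -0.065 (adjusted p = 0.562) and St6galnac4 one of 0.093 (adjusted p = 0.461). St6galnac3 and St6galnac4 use similar acceptors. There were 0.527 and 0.562 St6galnac3 reads per St6galnac4 read in controls and 0.387 and 0.376 in EM-plasma libraries. The pair was again chosen after the values were seen, and no test was made. St6galnac3 lay below both controls and St6galnac4 above both, so the groups of this ratio could not overlap.

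Polysialyltransferases and disialyl synthases of the St8sia family had 0 members. St8sia1, the synthase gene of the melanoma-associated ganglioside GD3, and St8sia4, a polysialic acid synthase gene, had 0 reads in every library, and so did St8sia2 and St8sia3. A count of 0 allows up to 3 reads, or 0.0608 to 0.0648 CPM, per library, for counting error only. St8sia5 had 5 reads and St8sia6 1 read in all.

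The polypeptide GALNT enzymes, which start mucin-type O-glycans, had 0 called of 7 members. Galnt1, the most abundant per kilobase, was at 141 and 155 CPM in controls and 135 and 143 CPM in EM-plasma libraries, with overlapping groups (log2 fold change -0.094, adjusted p = 0.345). Galnt10 was at 37 and 30.8 CPM in controls and 29.6 and 28.5 CPM in EM-plasma libraries and had the smallest p of the family (log2 fold change -0.23, adjusted p = 0.0772). Control 2 lay close to the EM-plasma libraries, and control 1 stood above the other 3. Galnt11 had a log2 fold change of -0.13, and Galnt4, Galnt7 and Galnt12 lay between 0.013 and 0.068. The Galnt12 libraries were at 32.4 and 33.1 CPM in controls and 34 and 34.6 CPM in EM-plasma. Galnt2 had only 198 reads in all, near the bottom of the members, and 90% of its exon length is shared with the gene model Gm20388 on the same strand, which had 0 reads. The sources used here do not say how the counting treated such reads, so the Galnt2 level may not reflect its transcript. The same holds for B3gnt2, with 269 reads and 58.6% of its exon length shared with Gm28048, also at 0 reads.

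The branching, extending and chain-starting enzymes of the Gcnt, B3galt and B3gnt families had 0 called of 8 members, most of them at low levels. Gcnt1, which branches mucin-type O-glycans, was at 18.2 and 19.7 CPM in controls and 21.6 and 21 CPM in EM-plasma libraries (log2 fold change 0.17, adjusted p = 0.235), and Gcnt2, which branches lactosamine chains, had a log2 fold change of 0.091. B3galt5, a galactosyltransferase of type I chains, was at 4.2 and 5.08 CPM in controls and 5.86 and 6.34 CPM in EM-plasma libraries (log2 fold change 0.39, 95% interval 0.10 to 0.69, adjusted p = 0.104). B3galt6, which acts on the glycosaminoglycan linker, had a log2 fold change of 0.15, and B3galt1 one of -0.08. B3gnt9 was at 10 and 10.3 CPM in controls and 12.9 and 11.5 CPM in EM-plasma libraries (log2 fold change 0.26, adjusted p = 0.127). B3gnt2, which extends lactosamine chains, was at 1.12 and 1.2 CPM in controls and 1.65 and 1.72 CPM in EM-plasma libraries (log2 fold change 0.54, adjusted p = 0.259), and B3gnt3 had a log2 fold change of -0.26 (adjusted p = 0.532). In B3galt5, B3galt6, B3gnt9, B3gnt2 and Gcnt1 both EM-plasma libraries lay above both controls. In B3gnt3 both lay below, and in B3galt1 and Gcnt2 the groups overlapped. Of all tested genes 24.3% lay above both controls in this way and 24.8% below.

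Of the sulfotransferases 1 of 3 members was called. Chst11 (chromosome 10, 82985498 to 83195900, plus strand, ENSMUSG00000034612) encodes an enzyme that sulfates the N-acetylgalactosamine of chondroitin. Chst11 was at 11.2 and 9.39 CPM in controls and at 13.3 and 13.3 CPM in EM-plasma libraries. The 2 EM-plasma libraries were nearly equal and above both controls, which differed from each other (10.3 ± 1.25 against 13.3 ± 0.045 CPM, SD, n = 2 per group). An SD of 2 values is a poor measure of spread, so the near equality carries little weight. Chst11 rose 1.29-fold (log2 fold change 0.37, 95% interval 0.16 to 0.58, adjusted p = 0.0265). Chst12, which has the same activity and the highest level of the family per kilobase, was at 43.2 and 38.1 CPM in controls and 41.6 and 40 CPM in EM-plasma libraries (log2 fold change 0.0048, 95% interval -0.13 to 0.14). Chst14, which sulfates dermatan, was at 26.3 and 22.6 CPM in controls and 24.3 and 23.5 CPM in EM-plasma libraries (log2 fold change -0.033, adjusted p = 0.87). In all 3 genes control 1 was higher than control 2. The other 11 rows of the family fell short of the read minimum, 6 of them with 0 reads.

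Levels per kilobase of the longest annotated protein-coding transcript ran from 0.185 CPM per kilobase for Mgat3 to 210 for Mgat4b, with a median of 13.7 over the members. Mgat4b and Mgat5 (99.2 CPM per kilobase) stood at the top, followed by St3gal1 (49.1), St3gal4 (44.7), St3gal5 (44.3), Man2a1 (43.4) and St3gal6 (42.5). From St3gal4 to St3gal6 the order rests on differences within the range of the 4 libraries. The called members were spread over this range, with Mgat4a at 17.5, Fut10 at 9.3, St6galnac3 at 2.22 and Chst11 at 2.13 CPM per kilobase. The longest transcript need not be the one expressed, so the order is approximate. Summed over a family and not per length, Mgat transcripts came to 1688 and 1649 CPM in controls and 1613 and 1608 CPM in EM-plasma libraries, St3gal transcripts to 752 and 745 against 762 and 753 CPM, and the mannosidases to 571 and 578 against 537 and 543 CPM. The St6gal family came to 267 and 271 CPM in controls and 251 and 248 CPM in EM-plasma libraries. In the Mgat, mannosidase, St6gal, Fut and Galnt sums both EM-plasma libraries lay below both controls. Abundant genes weigh most in such sums, so a lower sum is not a fall of every member. In the Mgat family, Mgat5 was at 889 and 888 CPM in controls and 790 and 779 CPM in EM-plasma libraries. For Mgat4a and Mgat4b both EM-plasma libraries lay above both controls. In the St3gal, Gcnt and B3gnt sums both lay above, and the B4galt, B3galt and Chst sums overlapped. The Fut, Galnt and St3gal sums nearly met. The Fut sums were at 110.4 and 115 CPM in controls and 102 and 110.1 CPM in EM-plasma libraries. The Galnt sums were at 310.5 and 325 CPM in controls and 299 and 309.6 CPM in EM-plasma libraries. For St3gal, control 1 was at 751.7 CPM and EM-plasma 2 at 752.7 CPM. The groups also did not overlap in 49.1% of all tested genes, and the sums were not tested.

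**Figure D3:**
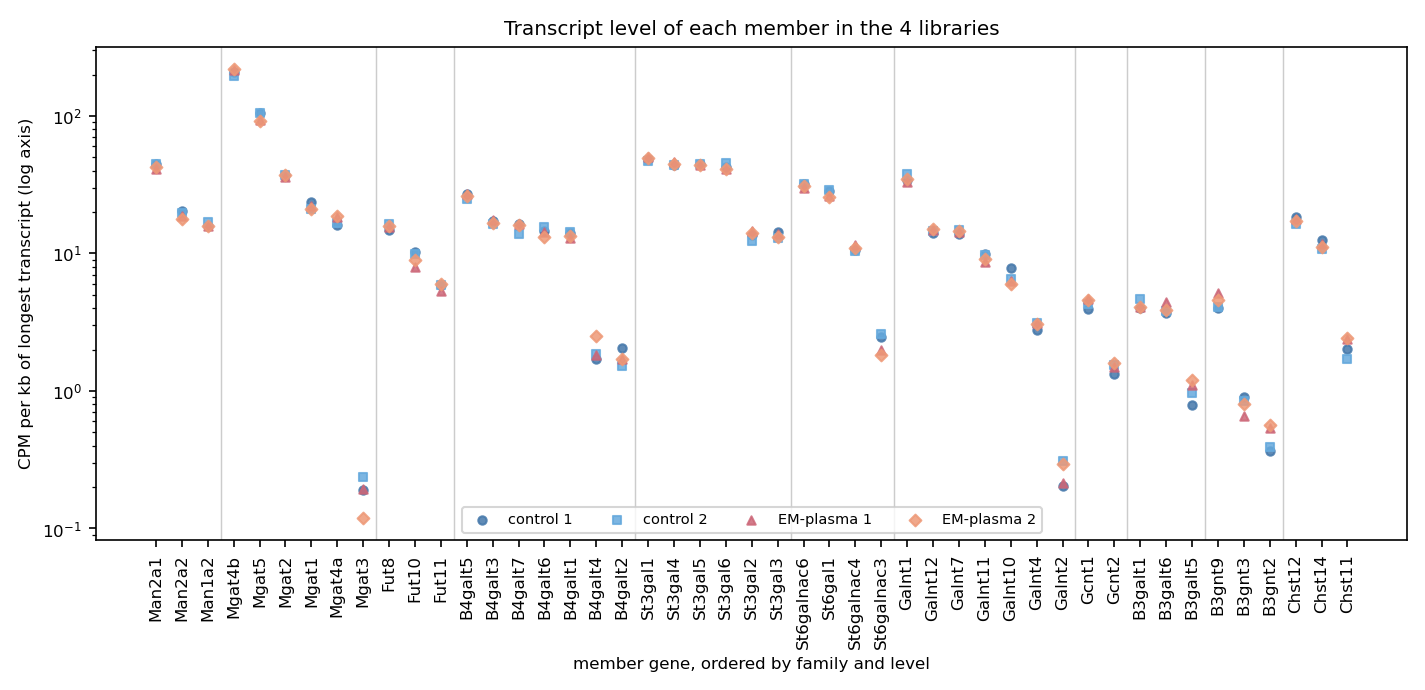
CPM per kilobase of the longest annotated transcript (vertical axis, log scale) for each member in each of the 4 libraries, ordered by family and level. Libraries of the 2 groups lie close together for nearly every gene, Mgat4b (210) and Mgat5 (99.2) are highest, and Mgat3 (0.185) and Galnt2 (0.254) are lowest.

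At the read minimum, the members just inside were Mgat3 with 164 reads, Galnt2 with 198 and B3gnt2 with 269, and the rows just outside were B3gnt7 with 37, B3galt4 with 30 and Chst5 with 22. Of the 37 B3gnt7 reads 20 came from EM-plasma 1, and of the 22 Chst5 reads 13 came from EM-plasma 2. In 27 of 47 members (57.4%) the groups did not overlap, against 49.1% of all tested genes. Both EM-plasma libraries were above both controls in 13 members (27.7%, against 24.3%) and below them in 14 (29.8%, against 24.8%). An unadjusted p below 0.05 was reached by 14 members (29.8%, against 19.5%).

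Between families the medians of the log2 fold change ran from -0.11 for St6gal to 0.26 for B3gnt. They were -0.089 for the mannosidases, -0.058 for Fut, -0.029 for Mgat, -0.0083 for Galnt, 0.0048 for Chst, 0.023 for B4galt, 0.026 for St3gal, 0.13 for Gcnt and 0.15 for B3galt. Families held 2 to 7 members, and no test was made between them. The medians of St6gal, the mannosidases, Gcnt, B3galt and B3gnt had the same sign in each of the 12 settings tried, those of Galnt turned above 0 with upper-quartile scaling (0.0016) or library totals alone (0.0024), and those of B4galt, Chst, Fut, Mgat, Galnt and St3gal changed sign in 1 or more of the fits without a library.

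The other enzymes and carriers of glycan synthesis were grouped in 7 lists by role, chosen with earlier results of these data known. Of 34 genes of the N-glycan precursor and the oligosaccharyltransferase 1 was called higher and 2 lower, and their median was -0.027. Magt1, an oligosaccharyltransferase subunit, was at 251 and 276 CPM in controls and 213 and 218 CPM in EM-plasma libraries (log2 fold change -0.29, SE 0.048, adjusted p = 0.000233). Alg6, which adds the first glucose to the lipid-linked precursor, fell as well (log2 fold change -0.19, adjusted p = 0.0288). Dpm1, the catalytic subunit of dolichol phosphate mannose synthase, rose (log2 fold change 0.72, adjusted p = 0.0284), but from 1.95 and 1.9 CPM, and it shares 895 exon bases with the gene model Gm20716 on the same strand, which had 0 reads.

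Of 14 trimming and quality control genes of the ER and Golgi 1 was called higher and 0 lower, while 8 of the 14 estimates lay below 0. The called gene was Uggt2, a paralogue of the glucosyltransferase that senses glycoprotein folding, at 19.5 and 21 CPM in controls and 27.1 and 27 CPM in EM-plasma libraries (log2 fold change 0.42, SE 0.075, adjusted p = 0.000487). Of 28 genes of nucleotide sugar and sulfate donor synthesis and of 14 genes of their Golgi transporters edgeR and DESeq2 called 0, with medians of -0.039 and 0.011. An unadjusted p below 0.05 was reached by 2 of the 28 and 0 of the 14. Gfpt1, which opens the hexosamine pathway, was at 269 and 288 CPM in controls and 271 and 280 CPM in EM-plasma libraries (adjusted p = 0.89). The most abundant transporter genes were Slc35a4 and Slc35b4, at nearly equal levels. Slc35a4 was at 164 and 146 CPM in controls and 157 and 158 CPM in EM-plasma libraries (adjusted p = 0.842).

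Of 28 tested glycosaminoglycan chain enzymes 1 was called higher and 2 lower, around a median of -0.0013. Chpf2, a chondroitin polymerising factor, was at 64.5 and 59.7 CPM in controls and 87.9 and 82.2 CPM in EM-plasma libraries (log2 fold change 0.45, SE 0.059, adjusted p = 6.73e-06). Chpf2 shares 44.1% of its exon length with Smarcd3 on the other strand, which had 365 to 407 reads per library and a log2 fold change of -0.037. Ust, which sulfates the uronic acid of chondroitin and dermatan, fell (log2 fold change -0.22, adjusted p = 0.0429), as did Sulf2, an extracellular sulfatase of heparan sulfate (log2 fold change -0.16, adjusted p = 0.0383). 

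Of 23 tested genes of other O-glycans and glycolipids 1 was called higher and 1 lower. Ogt, which adds single N-acetylglucosamine residues to nuclear and cytosolic proteins and is not a Golgi enzyme, was at 138 and 143 CPM in controls and 166 and 158 CPM in EM-plasma libraries (log2 fold change 0.20, adjusted p = 0.011). Pomk, a kinase of O-mannose glycans, fell (log2 fold change -0.18, adjusted p = 0.0327). Of 22 tested sialidases and lysosomal glycan-degrading genes 0 were called higher and 2 lower, Hgsnat (log2 fold change -0.20, adjusted p = 0.00442) and Ids (log2 fold change -0.18, adjusted p = 0.0431), which both act in the breakdown of heparan sulfate. The share called was 8.82%, 7.14%, 0%, 0%, 10.7%, 8.7% and 9.09% in these 7 lists in the order given, beside 6.21% of all tested genes. Of the 11 genes called in the lists, DESeq2 called 8 and missed Dpm1, Ids and Ust (adjusted p = 0.105, 0.0567 and 0.114). With upper-quartile scaling or library totals alone, Ids, Sulf2 and Ust were no longer called (Sulf2 adjusted p = 0.0504 and 0.0537). Chpf2, Magt1 and Uggt2 were called without control 1, EM-plasma 1 or EM-plasma 2, and 0 of the 11 were called without control 2 or with no filter.

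**Figure D4:**
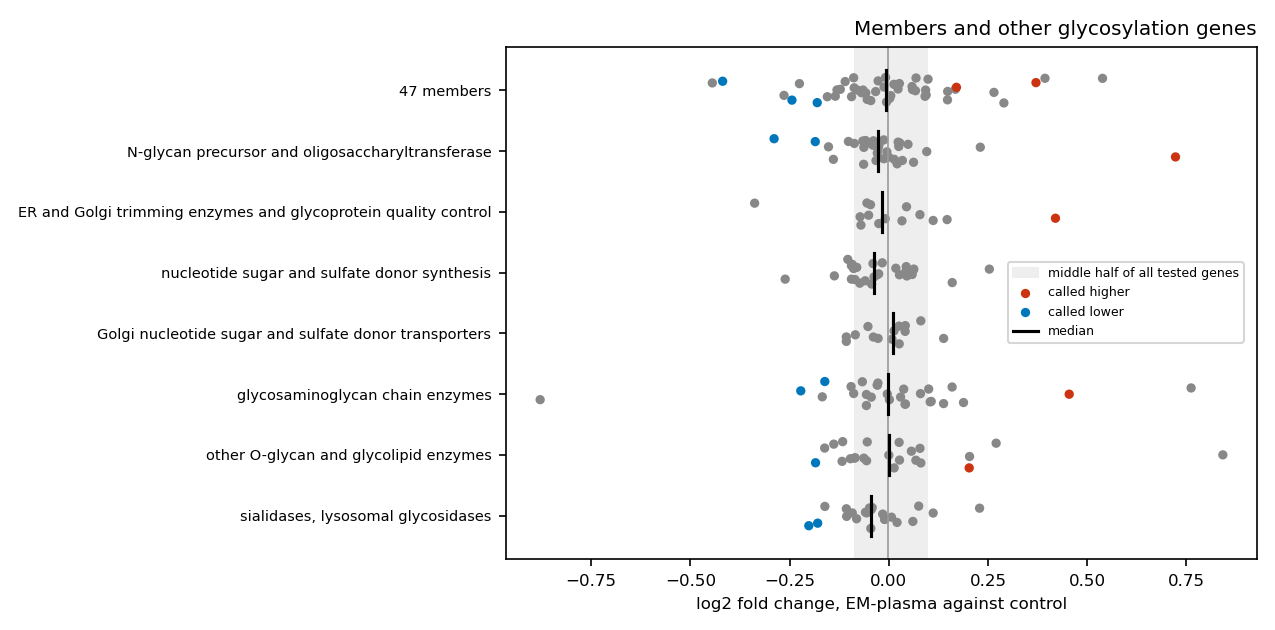
Log2 fold change of EM-plasma against control (horizontal axis) for the 47 members and the tested genes of 7 lists of glycan synthesis and breakdown. Each gene is 1 point, and points are spread vertically only for legibility. A bar marks each median, and a grey band lies between the quartiles of all tested genes. The medians lie between -0.045 and 0.011, and called genes, in colour, are 0 to 5 per row.

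Of the 47 members 17 changed sign in 1 or more of the 11 other settings, 0 of them called. The groups of each called member do not overlap, so a change of sign was hardly possible there. The estimates of these 17 give no direction. They include B4galt7, B4galt2, Galnt2, Galnt4, Galnt7, Fut11, Mgat1, Mgat2, St3gal3 and Man1a2.

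The calls of the 5 members depended on which libraries were used. Without control 1 the calls of Chst11, Mgat5 and St6galnac3 held, and without EM-plasma 1 that of St6galnac3 alone. Without control 2 or without EM-plasma 2 edgeR called 0 members, with an unadjusted p below 0.05 in 11 and 5. Over the 4 fits that left out a library the adjusted p ran from 0.00932 to 0.143 for St6galnac3, from 0.032 to 0.303 for Mgat5, from 0.0487 to 0.261 for Chst11, from 0.0821 to 0.585 for Mgat4a and from 0.0842 to 0.705 for Fut10. Each such fit leaves 1 library in a group, whose spread is taken from the other group, and the number of genes called over the whole table also fell, to between 71 and 547 from 849. The direction of all 5 held in each of 11 other settings. Their groups do not overlap, so leaving out 1 library could hardly have turned it. The log2 fold changes ran from -0.48 to -0.36 for St6galnac3, -0.33 to -0.16 for Fut10 and -0.19 to -0.17 for Mgat5. They ran from 0.15 to 0.19 for Mgat4a and from 0.26 to 0.50 for Chst11. DESeq2 called St6galnac3, Mgat5 and Mgat4a, but not Chst11 or Fut10 (adjusted p = 0.097 for each).

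**Figure D5:**
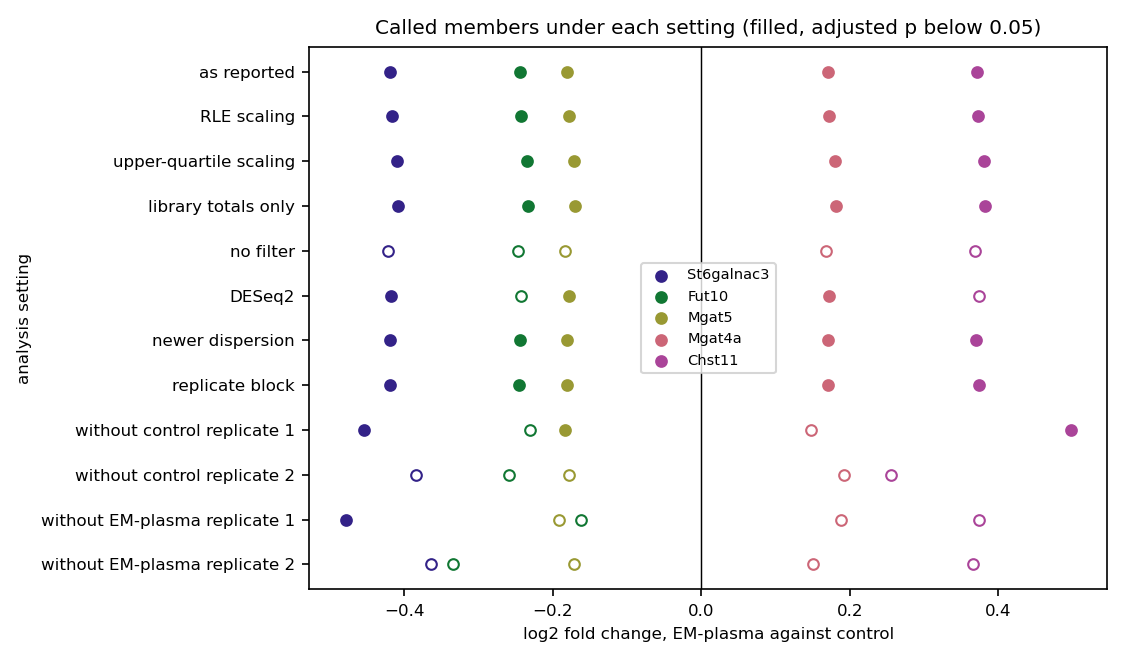
Log2 fold change of EM-plasma against control (horizontal axis) of the 5 called members as reported and under 11 other settings (vertical axis), filled where the adjusted p was below 0.05 and open otherwise. Estimates stay on one side of 0, which groups without overlap make hard to avoid. Chst11 (0.26 to 0.50) and Fut10 (-0.33 to -0.16) move the most. Open points occur in the fits without a library, with no filter and, for Chst11 and Fut10, with DESeq2.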

How the data were processed

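Stranded Illumina libraries were made from poly(A) RNA, per the labels' protocols. CASAVA, TopHat2 2.1.1, HTSeq and edgeR are listed, without roles, beside GRCm38 in the submitters' processing notes. The table deposited by the authors holds whole-number read counts per Ensembl gene. Their per-sample tables hold a scaled signal, which equalled the deposited counts times 1 constant per library (largest relative deviation 1.82e-08) and served only to check the columns. Symbols, positions and transcript lengths came from GENCODE mouse release M21.

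The count table was filtered with filterByExpr (edgeR 4.0.16, R 4.3.3), scaled by TMM and tested with edgeR's quasi-likelihood F test on group alone, two-sided, with Benjamini-Hochberg adjustment. Standard errors were derived from the log2 fold change and its F statistic, and 95% intervals use the fit's 27.5 degrees of freedom. Of these 25.5 are prior degrees of freedom, so a gene's p-value rests mostly on spread shared across the tested genes. The test was also run on simulated counts with known changes and the same spread for every gene. Such counts cannot show how reliable the calls are in these libraries. DESeq2 1.42.0, other scalings, no filter, a newer dispersion, a replicate block, a minimum of 200 reads and fits without each library were alternatives.

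Genes named are the called members, the 2 highest per kilobase and the smallest p in each family, and in each list the called gene of smallest adjusted p in each direction or the most abundant. Others were named after their values were seen. Members and lists were chosen with earlier results of these data known.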

Additional observations from a re-analysis of the deposited data

How the results depend on the processing

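Of all tested genes 849 were called. With no filter on low counts 14 genes were called, with DESeq2 557 and with the replicate block 1683. Without each library in turn 71 to 547 were called. The 2 members called higher became 0 with no filter, 1 with DESeq2, 4 with the replicate block and 0 to 2 without a library. The 3 members called lower became 0 with no filter and 6 with the replicate block, and DESeq2 kept only Mgat5 and St6galnac3 of them. The replicate block, on numbers that the labels do not tie to a shared culture or day, called the same 5 members and also B3galt5, Galnt10, Man2a2, St3gal2 and St6gal1. Libraries of the same number barely deviated together (correlation 0.039 across 13664 genes). A correlation over all genes would miss a shared effect on few of them, so it cannot settle whether the numbers pair the libraries. RLE, upper-quartile and total-count scaling and the newer dispersion each called the same 5 members. A minimum of 200 reads left the counts at 2 and 3, which it could not change, since each called member has more reads than that. The cause of these differences was not tested. The fits that leave a library out also rest on fewer libraries. Changes of sign were found in 17 of 47 members, 0 of them called, and in Gfpt1 and Slc35a4 among the list genes followed in every setting. Fut8 was -0.00044 with no filter, and without a library it ran from -0.076 to 0.082. Without a library B3galt1 ran from -0.19 to 0.038, B4galt3 from -0.0204 to 0.063, B4galt5 from -0.027 to 0.082, Chst12 from -0.081 to 0.096, Chst14 from -0.14 to 0.079, B4galt7 from -0.016 to 0.21, B4galt2 from -0.26 to 0.16, Galnt2 from -0.29 to 0.32, Galnt4 from -0.021 to 0.16, Galnt7 from -0.042 to 0.068, Fut11 from -0.15 to 0.030, Mgat1 from -0.13 to 0.043, Mgat2 from -0.036 to 0.0092, St3gal3 from -0.065 to 0.056, Man1a2 from -0.11 to 0.0016, Gcnt2 from -0.017 to 0.21, Gfpt1 from -0.068 to 0.035 and Slc35a4 from -0.049 to 0.10. Galnt2 and St3gal3 also turned above 0 with upper-quartile scaling and with library totals alone. With no filter edgeR called 0 members, with an unadjusted p below 0.05 in 11. With 2 libraries per group, 1 library can decide a call, and the members with the fewest reads (Mgat3, Galnt2, B3gnt2) have wide intervals.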
